A study of Mus musculus with 4 samples.

Results

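Accessible chromatin of macrophages without the creatine transporter gene Slc6a8 was compared after IL-4 and without it, in 2 of the 4 ATAC-seq libraries of the study. The cells were bone marrow-derived macrophages from mice of the strain background C57BL/6 with the genotype Slc6a8-/y (KO), grown for 5 days with 10% M-CSF. One KO library was left untreated. The other received IL-4 at 10 ng/mL for 6 h. Both used 50000 cells, whose nuclei were digested with Tn5, the transposase that inserts adapters into open DNA. The matching pair from wild-type (WT) mice of the same background was used only to show the state of the same regions. Each group was 1 library, so no difference was tested, nothing could be set against replicate error, and every statement is about these libraries. The labels do not say how many mice each library came from. The deposited data were 4 lists of peaks, which are stretches of enriched Tn5 insertion, with 1 score for each peak given by the authors.

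The KO untreated list held 13714 peaks and the KO IL-4 list 10443. A peak of the IL-4 list with no overlap of 1 bp in the untreated list was called gained, and a peak of the untreated list with no overlap in the IL-4 list was called lost. By this rule 1885 of 10443 IL-4 peaks were gained (18.1%, exact 95% interval 17.3% to 18.8%) and 5174 of 13714 untreated peaks were lost (37.7%, 36.9% to 38.5%). Intervals here are Clopper-Pearson (exact) and reflect counting error alone. Read depth is unknown, and a longer list leaves more of its peaks unmatched. Each count was therefore repeated on the 9930 highest-scoring peaks of each list, called lists of equal length here. There 2630 peaks were gained (26.5%) and 2654 lost (26.7%). Lists of the same length leave nearly the same number of peaks unmatched by construction, so these totals cannot show an excess in either direction. The lowest score kept was 67.78 in the untreated list and 52.2 in the IL-4 list. A gain or loss at equal length can therefore be a region with a peak in both full lists, cut from 1 of them.

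IL-4 binds a receptor that contains the alpha chain Il4ra and activates Janus kinases, which phosphorylate the transcription factor Stat6. Stat6 dimers bind paired TTC and GAA half-sites and drive the program of alternative activation, which includes the arginase gene Arg1, lectin receptors such as Mrc1 and Clec10a, and prostaglandin and lipid enzymes. In macrophages this program uses both promoters and enhancers, and enhancers lie at a distance from the genes they serve. Slc6a8 takes up creatine, which creatine kinases use to buffer ATP.

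The following promoter sequences lie at 5 genes whose start was under a gained peak. They are shown because the IL-4 targets Ptgs1 and Plcb1, the inflammasome gene Nlrp3, the AP-1 gene Fos and the creatine synthesis gene Gatm all come up in the results. Each is the 250 bases before the start, written 5′ to 3′ in the direction of the gene, from the RefSeq promoter table of build GRCm38.p6. Capitals mark matches, on either strand, to any of 14 motifs that were searched.
Ptgs1: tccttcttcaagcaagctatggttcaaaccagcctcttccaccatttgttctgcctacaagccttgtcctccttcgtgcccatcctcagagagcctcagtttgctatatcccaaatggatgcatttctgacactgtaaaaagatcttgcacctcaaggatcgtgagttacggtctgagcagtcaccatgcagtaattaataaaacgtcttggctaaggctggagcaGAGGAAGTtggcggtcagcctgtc
Plcb1: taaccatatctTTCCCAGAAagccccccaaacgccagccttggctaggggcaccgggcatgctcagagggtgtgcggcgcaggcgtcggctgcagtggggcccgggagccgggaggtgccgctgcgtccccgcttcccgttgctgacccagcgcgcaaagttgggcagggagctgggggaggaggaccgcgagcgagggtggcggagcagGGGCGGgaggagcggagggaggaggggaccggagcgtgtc
Nlrp3: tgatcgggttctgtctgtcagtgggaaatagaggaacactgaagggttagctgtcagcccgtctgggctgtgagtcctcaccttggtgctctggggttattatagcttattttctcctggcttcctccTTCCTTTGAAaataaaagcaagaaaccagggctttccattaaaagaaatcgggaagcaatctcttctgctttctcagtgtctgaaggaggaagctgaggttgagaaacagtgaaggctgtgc
Fos: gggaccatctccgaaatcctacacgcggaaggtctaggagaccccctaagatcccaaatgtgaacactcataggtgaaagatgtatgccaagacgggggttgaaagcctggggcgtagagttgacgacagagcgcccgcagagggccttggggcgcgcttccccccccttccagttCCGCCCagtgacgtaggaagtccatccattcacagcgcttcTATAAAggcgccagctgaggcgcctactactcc
Gatm: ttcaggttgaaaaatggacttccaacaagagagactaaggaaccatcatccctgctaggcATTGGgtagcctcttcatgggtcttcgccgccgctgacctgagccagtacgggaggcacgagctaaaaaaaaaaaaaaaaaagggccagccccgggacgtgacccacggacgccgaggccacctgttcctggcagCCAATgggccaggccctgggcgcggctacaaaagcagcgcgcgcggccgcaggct

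The windows are Ptgs1 at chr2:36230176-36230425 on the plus strand, Plcb1 at chr2:134785914-134786163 on the plus strand, Nlrp3 at chr11:59542436-59542685 on the plus strand, Fos at chr12:85473640-85473889 on the plus strand and Gatm at chr2:122611278-122611527 on the minus strand. In Plcb1 the first capitals are a pair of TTC and GAA half-sites with a spacer of 3 bases, outside the gained peak, which covers the 3′ part of the window, and in Nlrp3 a pair with a spacer of 4 bases, the form that Stat6 prefers. The capitals in Ptgs1 are a purine-rich element of the type bound by PU.1. Fos has a GC box and a TATA box, and Gatm a CCAAT box in each orientation.

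The next 5 sequences, in the same form, had a peak in the untreated library only. They are shown because Irs2 and Socs3 act in IL-4 receptor signalling, Abca1 exports cholesterol, and Ifih1 and Rsad2 belong to the interferon response.
Irs2: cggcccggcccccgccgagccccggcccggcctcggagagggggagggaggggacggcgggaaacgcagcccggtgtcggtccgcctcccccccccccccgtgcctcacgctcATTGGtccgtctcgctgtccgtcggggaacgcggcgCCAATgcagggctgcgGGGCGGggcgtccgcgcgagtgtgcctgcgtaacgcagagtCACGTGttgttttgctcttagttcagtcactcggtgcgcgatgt
Socs3: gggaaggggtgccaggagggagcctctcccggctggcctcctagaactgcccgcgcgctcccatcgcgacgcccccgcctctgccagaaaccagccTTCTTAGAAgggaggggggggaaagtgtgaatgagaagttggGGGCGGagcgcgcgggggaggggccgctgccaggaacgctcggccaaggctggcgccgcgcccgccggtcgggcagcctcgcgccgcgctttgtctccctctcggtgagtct
Abca1: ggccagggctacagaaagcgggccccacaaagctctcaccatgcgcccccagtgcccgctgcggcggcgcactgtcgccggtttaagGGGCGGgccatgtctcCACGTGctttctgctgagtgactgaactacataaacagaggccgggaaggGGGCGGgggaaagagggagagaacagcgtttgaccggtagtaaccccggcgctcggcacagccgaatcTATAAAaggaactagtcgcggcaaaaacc
Ifih1: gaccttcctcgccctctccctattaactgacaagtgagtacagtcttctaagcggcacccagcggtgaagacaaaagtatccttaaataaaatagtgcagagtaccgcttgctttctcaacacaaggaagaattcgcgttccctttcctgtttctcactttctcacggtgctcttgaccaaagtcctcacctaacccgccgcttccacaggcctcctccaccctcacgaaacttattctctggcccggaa
Rsad2: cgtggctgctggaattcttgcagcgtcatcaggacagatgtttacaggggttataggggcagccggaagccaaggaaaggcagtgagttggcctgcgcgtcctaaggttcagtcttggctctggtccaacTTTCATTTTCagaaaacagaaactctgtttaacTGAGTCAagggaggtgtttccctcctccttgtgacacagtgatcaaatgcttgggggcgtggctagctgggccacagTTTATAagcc

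The windows are Irs2 at chr8:11008930-11009179 on the minus strand, Socs3 at chr11:117969367-117969616 on the minus strand, Abca1 at chr4:53159896-53160145 on the minus strand, Ifih1 at chr2:62646256-62646505 on the minus strand and Rsad2 at chr12:26456453-26456702 on the minus strand. The capitals in Irs2 include an E-box, CCAAT boxes and a GC box. Socs3 holds TTC and GAA half-sites with a spacer of 3 bases, outside the lost peak. Abca1 holds an E-box, GC boxes and a TATA box. In Rsad2 the first capitals match an interferon element, GAAA repeated after 2 other bases, on the reverse strand. Ifih1 matched none of the motifs in this window. A match is a description of the letters and not a binding site.

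The labelled cell type was checked on 12 macrophage genes. In the untreated library 8 of the 12 had a peak within 10 kb of the gene, and in the IL-4 library 6 of 12. The myeloid lysozyme gene Lyz2, the integrin gene Itgam, the engulfment receptor gene Mertk and the lineage factor Spi1 had such a peak in the untreated library alone, the macrophage receptor genes Adgre1 and Fcgr1 in the IL-4 library alone, and Cd68, Cebpa, Csf1r and Cx3cr1 in both. Cebpb and Tyrobp had none in either. A peak within 1 kb of a gene end is a narrower measure. By it, 6 of the 12 macrophage genes had one in the untreated library and 3 in the IL-4 library. Of 97 marker entries for 8 groups of other cell types, 8 had one in the untreated library and 4 in the IL-4 library. Of all 21883 protein-coding genes 7617 and 6347 had one, in the same order. The part of other cells in the comparison was not tested beyond these counts. Slc6a8 itself had no peak within 10 kb in either KO library, so it offers no check of the genotype.

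Gained and lost peaks were narrower and weaker than the peaks that both KO libraries held. The median width was 408 bp for gained peaks, against 544 bp for kept peaks as measured in the IL-4 library. It was 438 bp for lost peaks, against 599 bp for kept peaks as measured in the untreated library. The median score was 61.3 for gained peaks, which is percentile 21.2 of the IL-4 list, against 96.9 for kept IL-4 peaks. For lost peaks it was 66.8, which is percentile 26.4 of the untreated list, against 129.4 for kept untreated peaks. Of the gained peaks 84 (4.46%) scored 100 or more, against 40.0% of the whole IL-4 list. Of the lost peaks 704 (13.6%) did, against 46.5% of the whole untreated list. Ordered by score, 75.9% of the lowest decile of the untreated list was lost and 0.219% of the highest decile. For the IL-4 list, 45.6% of the lowest decile and 0.192% of the highest decile were gained. Both shares fell at every step of the order, as the plot of shares by score decile shows.

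**Figure D1:**
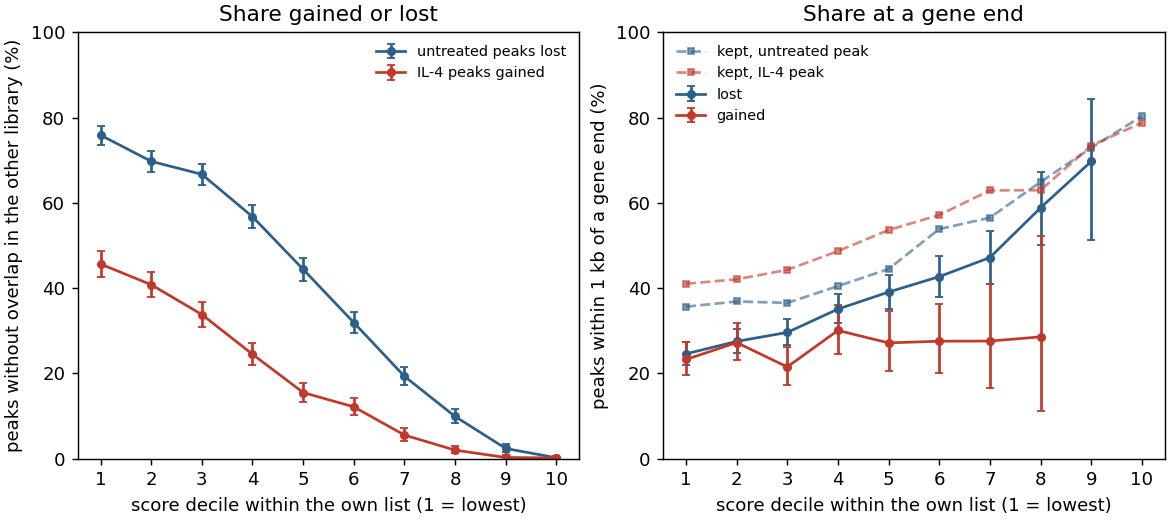
Left, share of untreated peaks lost and of IL-4 peaks gained (percent) in each score decile of the own list. Right, share of peaks within 1 kb of a gene end (percent) among gained and lost peaks (deciles with at least 20 of them) and among kept peaks. Points are shares and bars are exact 95% intervals. The share lost runs from 75.9% to 0.219% and the share gained from 45.6% to 0.192%.

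The losses and gains were spread over the genome. On the autosomes the share of peaks lost ran from 32.7% on chromosome 18 to 41.6% on chromosome 19, and the share gained from 13.8% on chromosome 9 to 24.2% on chromosome 15. On chromosome X, which carries Slc6a8, 127 of 283 untreated peaks were lost (44.9%, 39.0% to 50.9%) and 29 of 185 IL-4 peaks were gained (15.7%, 10.8% to 21.7%). The X share of losses was the highest of any chromosome, and its interval overlapped that of chromosome 19.

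Peaks that came or went lay away from gene ends more often than peaks that stayed. A peak within 1 kb of either end of a protein-coding gene was called an edge peak. Of the gained peaks 482 of 1885 were edge peaks (25.6%, 23.6% to 27.6%) and of the lost peaks 1718 of 5174 (33.2%, 31.9% to 34.5%), against 58.8% of the kept untreated peaks. At equal length the edge shares were 29.6% for gained, 40.0% for lost and 62.7% for kept peaks. Gained peaks were thus less often at an edge than lost peaks in both forms, with intervals that did not overlap. Peaks moved by 20 kb were edge peaks in 8.97% of cases for the untreated list and 8.81% for the IL-4 list.

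Gene bodies and intergenic regions took the remainder. Of the gained peaks 37.7% lay inside a gene, 10.2% within 10 kb of one, 20.4% at 10 to 100 kb and 6.15% farther away. For lost peaks the same classes held 36.8%, 9.53%, 15.3% and 5.10%. The largest gap between gained and lost outside the edges was at 10 to 100 kb, where the intervals were 18.6% to 22.3% and 14.4% to 16.4%.

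**Figure D2:**
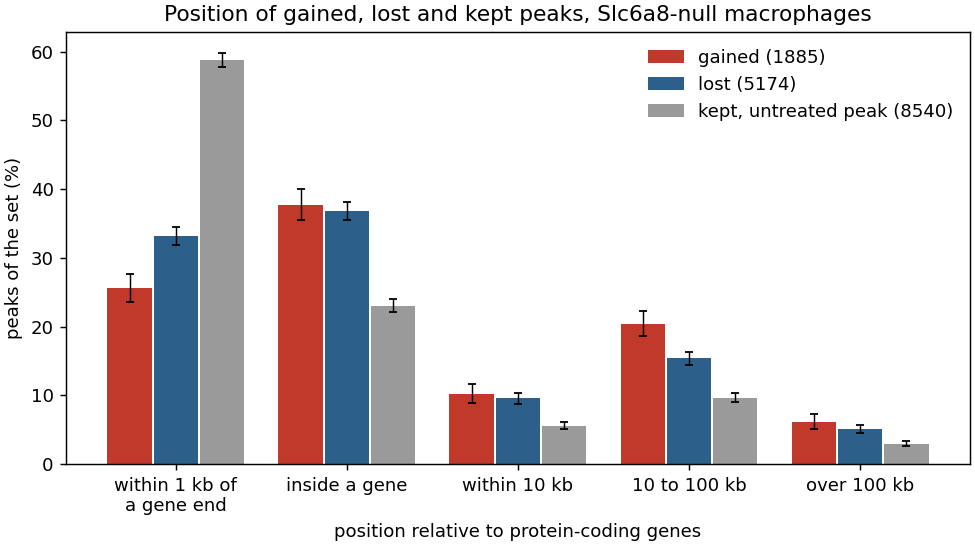
Share of gained, lost and kept peaks (percent of each set) in 5 classes of distance to protein-coding genes. Bars are shares and error bars exact 95% intervals. Edge peaks make up 25.6% of gained, 33.2% of lost and 58.8% of kept peaks.

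Seen from the class, 25.5% of the untreated edge peaks were lost, against 49.1% to 51.1% of the peaks in each of the other 4 classes. In the IL-4 list 8.74% of edge peaks were gained, against 26.4% to 31.9% in the other classes. At equal length the figures were 18.9% lost at edges against 36.3% to 39.3% elsewhere, and 14.5% gained at edges against 39.6% to 42.5%. Weak peaks are less often at edges, so the edge shares were also taken within each score decile. In the lowest decile of the IL-4 list 23.3% of gained peaks were edge peaks, against 41.0% of kept peaks. In the sixth decile the shares were 27.6% and 57.1%. Among lost peaks the shares were 24.6% in the lowest decile and 42.7% in the sixth, against 35.6% and 53.9% for kept peaks. The lower edge share of library-specific peaks was thus present at like scores as well, though less clearly for lost peaks. Intervals of lost and kept peaks overlapped in several deciles, among them the fourth, with 35.1% (31.7% to 38.6%) against 40.5% (36.5% to 44.5%).

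A narrower view used transcription starts, since an edge can be either end of a gene. The window of 250 bases before to 50 bases after a start was available for 17491 of 21883 protein-coding genes, and peaks on chromosome 18 were left out. Of the gained peaks 18.1% touched such a window, of the lost peaks 25.5% and of the kept untreated peaks 52.4%. Among edge peaks alone the shares were 59.7%, 66.2% and 80.5%. Counted over promoters, 372 windows had a peak in the IL-4 library only and 1508 in the untreated library only.

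For all 14 motifs the intervals of gained and lost promoters overlapped. The pair of TTC and GAA with a spacer of any 4 bases, the Stat6 form, was in 31 of 372 gained promoters (8.33%, 5.73% to 11.6%), 78 of 1508 lost promoters (5.17%, 4.11% to 6.41%) and 4.97% of the promoters with a peak in both libraries. Of all 21237 promoter windows 6.34% held it.  The pair with a spacer of 3 bases, TTCNNNGAA, was in 5.65% of gained and 5.64% of lost promoters, against 7.69% of all. The interferon element, a pair of GAAA with 2 bases between, was in 2.69% and 3.45%, against 3.34% of all. The E-box CACGTG, bound by Myc and by lysosomal and sterol regulators among others, was in 8.06% of gained promoters (5.51% to 11.3%) and 12.9% of lost promoters (11.2% to 14.7%), against 7.84% of all. The cAMP element TGACGTCA was in 1.88% of gained and 4.51% of lost promoters, against 2.24% of all, with intervals of 0.760% to 3.84% and 3.52% to 5.68%. The CCAAT box was in 31.5% of gained and 33.1% of lost promoters but in 49.2% of those with a peak in both libraries. Median GC content was 61.0%, 61.3% and 62.7% in these groups in the same order, and 56.3% over all windows.

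At the level of genes, 7617 protein-coding genes had an edge peak in the untreated library and 6347 in the IL-4 library. An edge peak was gained at 459 genes (2.1% of 21883) and lost at 1729 (7.9%). At equal length it was gained at 810 (3.7%) and lost at 1146 (5.24%). Nearly all of these genes had a peak with no counterpart, 446 of the 459 and 1702 of the 1729. At the others a peak of both libraries reached the edge in 1 of them only. Among genes with an untreated edge peak 22.7% lost it, and among genes without one 3.22% gained it. These shares are the base for the gene lists that follow.

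**Figure D3:**
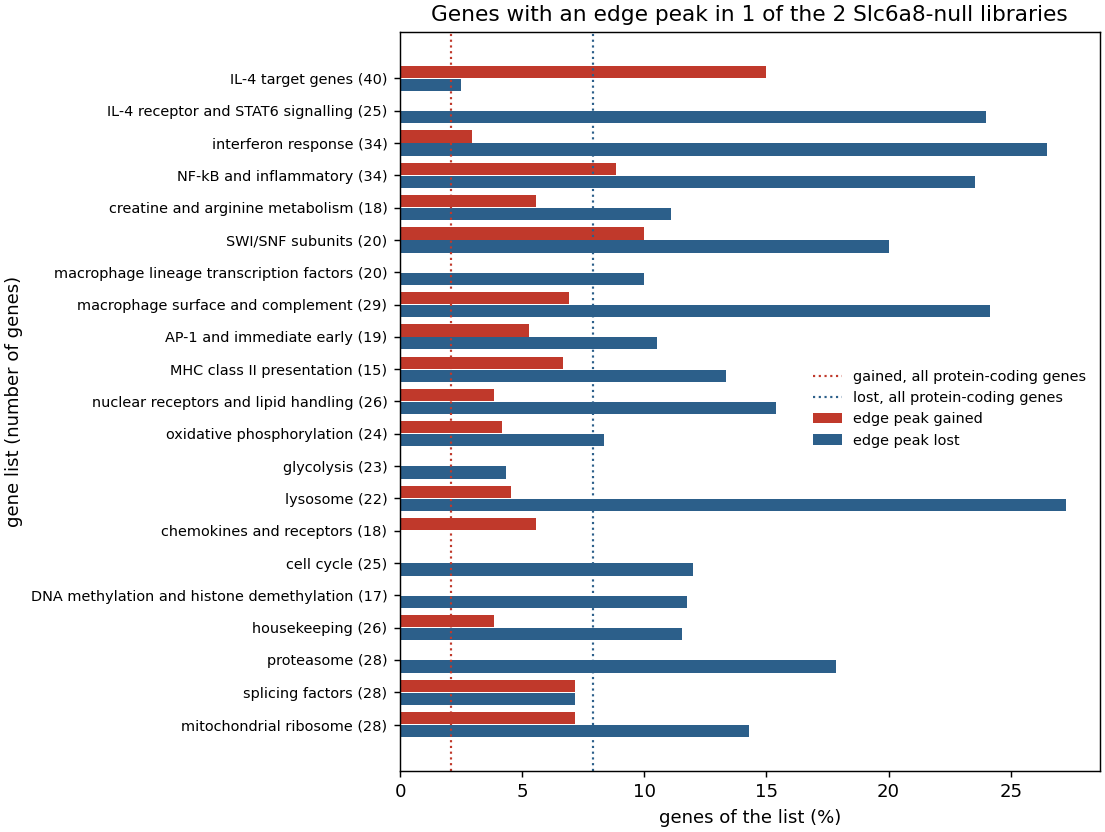
Share of the genes of each functional list (percent) with an edge peak gained or lost after IL-4 in Slc6a8-null cells, with the size of the list in brackets. Dotted lines give the shares over all protein-coding genes, 2.1% gained and 7.9% lost. IL-4 target genes have 6 gained and 1 lost of 40.

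IL-4 target genes gained more edge peaks than they lost in the full lists and at equal length, while with a score of 100 or more in both lists 1 was gained and 2 were lost. The list holds 40 genes known to respond to IL-4 in macrophages, and 5 had an edge peak in the untreated library and 10 after IL-4. The peak was gained at 6 genes (15%, against 2.1% of all genes) and lost at 1 (2.5%, against 7.9%). At equal length 6 were gained and 1 lost, with Tgm2 no longer among the gains and the transcription factor gene Myc added. None of the 6 gained peaks scored 100 or more. In the WT pair the same list went from 6 genes to 4.

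The gained edges included several enzymes and secreted factors. Ptgs1, which encodes cyclooxygenase 1 of prostaglandin synthesis, had a gained peak of score 93.8, and the WT IL-4 library had one there of 90.9 while both untreated libraries had none. Ccl24, an eosinophil-attracting chemokine, had a gained peak of 78.6 where only the WT untreated library had another, of 97.1. The macrophage lectin gene Clec10a had a gained peak of 59.9 that no other library held. Plcb1, a phospholipase C, had one of 57.2, also alone. Tgm2, a transglutaminase used as a marker of alternative activation, had one of 51.3, which was below the score limit at equal length. Of these genes Ptgs1 alone had an edge peak in both IL-4 libraries and in neither untreated library.

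The von Willebrand factor gene Vwf entered the list of gains by a shift in place. Its gained peak of 80.2 began 29 bp past the end of an untreated peak of 54.1, which was counted as lost, and the WT untreated library had a single peak of 163 over both. Kdm6b, a histone H3 lysine 27 demethylase, counted as lost at the edge, although its untreated peak of 115 overlapped an IL-4 peak of 89.4 that stopped short of the edge. The 4 targets with an edge peak in both KO libraries were Socs1, Cish, Klf4 and Myc. Socs1, a feedback inhibitor of Janus kinases, scored 82.0 untreated and 159.7 after IL-4, and its percentile went from 40.9 to 83.6. Cish, another inhibitor of the same family, scored 141 and 86.6, at percentiles 71.3 and 50.4. Scores of different lists are compared here by percentile only.

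The classical markers of alternative activation showed no gained peak at the gene. Arg1 had 2 untreated peaks within 10 kb and none after IL-4. The lost peaks scored 67.2 at 3523 bp on one side and 59.8 at 2768 bp on the other. The WT IL-4 library did have a peak over the second, of 121. The mannose receptor gene Mrc1 had 2 untreated peaks inside the gene, of 55.9 and 55.6, and none there after IL-4. All 4 of these peaks were too weak to enter the lists of equal length. Retnla and Chil3 had no peak within 10 kb in either KO library. Nos2, the inducible nitric oxide synthase of classical activation, had none either, although a gained peak of 87.0 lay 24452 bp away.

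Around the IL-4 targets, the balance of gained and lost peaks away from gene ends turned with the lists compared: 26 gained and 31 lost in the full lists, 25 and 14 at equal length, and 1 and 8 with a score of 100 or more. Within 100 kb of the 40 genes there were 58 such peaks in the untreated library and 54 after IL-4. Of these 26 were gained (48.1%, 34.3% to 62.2%), against 28.5% of all 4931 IL-4 peaks away from edges. Another 31 were lost (53.4%, 39.9% to 66.7%), against 49.5% of all 6975 untreated peaks of this kind. At equal length 25 of 47 were gained (53.2%, 38.1% to 67.9%) against 40.5%, and 14 of 35 lost (40.0%, 23.9% to 57.9%) against 37.0%. The interval of the gained share included the background at equal length but not in the full lists, and that of the lost share included it in both. A gained peak lay near 18 genes and a lost peak near 20, and 12 genes had both. Peaks were assigned to targets by distance alone, and several lay inside or nearer to another gene.

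**Figure D4:**
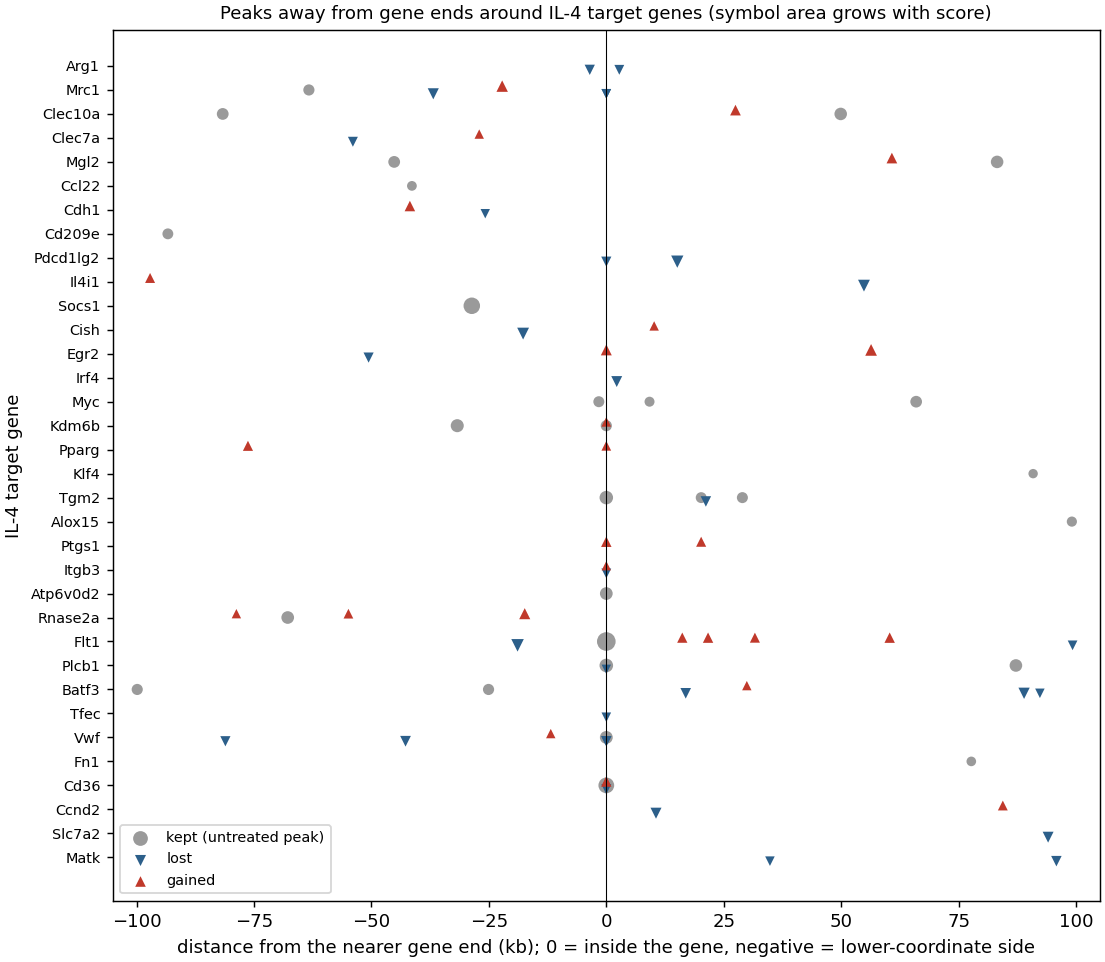
Peaks more than 1 kb from gene ends and within 100 kb of IL-4 target genes in Slc6a8-null cells, by distance from the nearer end of the gene (kb). Peaks inside the gene are at 0, and symbol area grows with the score within the own list. Triangles pointing up are gained, triangles pointing down lost, circles kept. Flt1 has 4 gained peaks on one side, and Arg1 has 2 lost peaks close to its ends.

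Flt1 had the most gained peaks of the 40 genes. It encodes a receptor for vascular endothelial growth factor. Gained peaks of 66.7, 68.8, 62.7 and 69.7 lay 16172, 21661, 31631 and 60319 bp from the gene, all on the same side. Of these the first had a WT untreated peak of 61.2, the second had peaks in both WT libraries, the third had none, and the last had a WT IL-4 peak of 78.7 alone. A peak inside Flt1 was kept at 289 and 296, and lost peaks of 115 and 56.5 lay 18892 and 99250 bp away. The lost peak of 115 lay inside Pan3. All 4 gains held at equal length.

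Egr2, a transcription factor induced by IL-4, had gained peaks of 80.4 and 96.3. The first lay inside the gene span over 4 annotated promoter windows, and the WT libraries had 70.6 untreated and 93.4 after IL-4 there. The second lay 56361 bp away, where the WT untreated library had 123. A lost peak of 65.3 lay 50600 bp to the other side. Ptgs1 had 2 more gained peaks besides the one at its edge. One of 70.6 covered the promoter printed above and was in neither WT library, and one of 63.4 lay 20190 bp away. Pparg, a lipid-sensing nuclear receptor, had no untreated peak and gained 64.4 at 76278 bp and 56.8 inside the gene. The first of these lay 1497 bp from Syn2. Cd36, the scavenger receptor for oxidized lipid, gained 61.7 and 62.3 and lost 63.2 inside the gene, next to a kept peak of 198 and 116. Near Rnase2a, in a cluster of eosinophil-associated ribonuclease genes, 3 peaks of 51.0, 56.8 and 83.1 were gained. Inside Kdm6b a peak of 56.1 was gained where the WT IL-4 library alone had another, of 84.4.

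Mrc1 gained a peak of 90.2 at 22165 bp, which both WT libraries had too, and lost one of 83.4 at 36831 bp, which the WT untreated library alone shared. Both peaks lay inside the neighbouring gene Tmem236. A gained peak of 75.2 near the neighbouring lectin genes Clec10a and Mgl2 lay 27495 bp from the first and 60789 bp from the second, and was in neither WT library. Cdh1, the adhesion gene for E-cadherin, gained 72.2 at 41811 bp and Il4i1 gained 62.0 at 97113 bp. The first of these lay 4173 bp from Cdh3 and the second inside Zfp473.

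Losses were most numerous around Vwf, Batf3 and Mrc1, which lost 4, 3 and 3 peaks. Around Vwf 4 peaks of 54.1 to 76.1 were lost, and around Batf3, a transcription factor of the AP-1 family, 3 of 52.9 to 87.6, of which 2 also lay within 20 kb of Atf3. Pdcd1lg2, the ligand of the inhibitory receptor PD-1, lost peaks of 109 at 15109 bp and 65.2 inside the gene. Single losses included 99.5 near Cish, 99.2 near the amino acid oxidase gene Il4i1, 82.1 near the cyclin gene Ccnd2 and 80.0 close to Irf4, a transcription factor of the IL-4 response. The loss near Cish lay inside Mapkapk3 and that near Il4i1 inside Fuz. Slc7a2, a carrier of arginine, lost 79.8 at 94044 bp, inside Mtus1, and Tgm2 lost 71.4 at 21192 bp. Near Matk the losses were 71.5 inside Mfsd12 and 53.9 inside Pip5k1c. Of the 26 gained peaks 17 had a peak in a WT library (65.4%, against 59.9% of all gained peaks away from edges), and of the 31 lost peaks 21 (67.7% against 66.3%).

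IL-4 receptor and Stat6 signalling genes lost edge peaks and gained none. Of 25 genes 15 had an edge peak untreated and 9 after IL-4. The 6 losses are 40.0% of the 15, against 22.7% over all genes, and 24.0% of the list against 7.9%. Irs2, the adaptor that links the receptor to phosphatidylinositol 3-kinase, lost a peak of 170, at percentile 79.4, and the WT libraries had 82.3 untreated and none after IL-4. Rictor, a subunit of the kinase complex mTORC2, lost 95.7, and neither WT library had an edge peak. Socs3 lost 76.5, the kinase gene Akt2 72.9, the coactivator gene Ncoa1 57.5 and the receptor-associated kinase gene Jak3 51.4. At equal length 4 losses remained in 12 genes (33.3%, against 17.5% over all genes), those of Irs2, Akt2, Rictor and Socs3, and 1 gene gained an edge peak. Irs2, Akt2 and Socs3 had an untreated edge peak and no IL-4 edge peak in the WT pair also.

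Stat6 and the kinase genes Jak1, Jak2 and Tyk2 kept their edge peaks. Stat6 had 3 peaks within 10 kb in each KO library, and the one at its edge was at percentile 36.9 untreated and 18.3 after IL-4. Jak1 was at percentiles 84.3 and 79.0, Jak2 at 57.7 and 61.1, and Tyk2 at 76.6 and 63.7. Stat3 was at 97.7 and 95.2 and Mtor at 95.5 and 96.8. Il4ra had 1 peak inside the gene, of 81.0 at percentile 40.0 in the untreated library, and after IL-4 its nearest peak lay 60460 bp away. The WT untreated library had a peak of 106 there and the WT IL-4 library none.

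Interferon response genes lost 9 edge peaks and gained 1 in the full lists, and lost and gained 5 each at equal length. Of 34 genes 21 had an edge peak untreated and 13 after IL-4, and the 9 losses are 42.9% of 21 against 22.7% over all genes. At equal length 13 genes had one in each library, with 5 losses (38.5%, against 17.5%). The 5 losses at equal length were Irf9, a DNA-binding factor of interferon signalling, with 93.3, Usp18, a protease for the modifier Isg15, with 89.8, Oas2, a sensor of double-stranded RNA, with 82.8, Rsad2, the antiviral enzyme viperin, with 80.2, and Ifih1, the RNA sensor Mda5, with 77.3. Irf3 (67.0), Trim25 (66.7), Cxcl10 (65.4) and Oas1a (57.1) were lost in the full lists only. Oasl2 gained a peak of 76.4 that no other library had. Irf1 kept 2 peaks within 10 kb, and the one at its edge was at percentiles 0.824 and 19.9.

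A cluster of interferon genes on chromosome 4 had the most losses within 50 kb of any protein-coding gene. The cluster has 15 protein-coding genes, among them Ifnz and Gm13271, between 88754868 and 88808380. Within 50 kb of it the untreated library had 14 peaks and the IL-4 library 6, and 9 peaks were lost and 1 gained. The lost peaks scored from 63.0 to 120. All 9 had a WT untreated peak, and 5 of them a WT IL-4 peak as well. The genes are near-identical copies, and how reads that match several copies were placed is not known here, so the peaks there may not be independent.

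NF-kB and inflammatory genes had losses and gains. Of 34 genes 19 had an edge peak untreated and 14 after IL-4, with 8 lost (42.1% of 19, against 22.7%) and 3 gained. The losses at equal length were Tnfaip2, a TNF-induced gene, with 110, Irak3, a brake on Toll-like receptor signalling, with 109, Nfkbia, the inhibitor of NF-kB, with 72.0, and the NF-kB subunit gene Nfkb1 with 69.4. Cd40 (62.4), Tlr2 (57.2), Il23a (57.2) and Rela (50.3) were lost in the full lists only. The gains were Map3k8, a kinase downstream of Toll-like receptors, with 106, Nlrp3 with 64.2 and the costimulatory gene Cd80 with 64.0, and all 3 held at equal length. There the balance turned, from 12 genes with an edge peak to 14, with 6 gained (17.6% of the list, against 3.7% of all genes) and 4 lost. The added gains, Il12b, Traf6 and Casp1, had an edge peak in both full lists, in Il12b at another place. Their untreated peaks scored below the equal-length limit of 67.78. The Map3k8 edge had WT peaks of 231 untreated and 85.9 after IL-4, so its gain was an absence in KO untreated alone. Relb, Rel and Tlr4 kept edge peaks in both KO libraries, with Rel at percentile 69.1 untreated and 90.3 after IL-4.

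Macrophage surface and complement genes lost 7 edge peaks of 15 (46.7%, against 22.7%) and gained 2. Sirpa, the receptor of the signal Cd47, is counted as lost because its untreated peak of 99.8 overlapped an IL-4 peak of 90.2 that did not reach the edge. Peaks were lost at the fractalkine receptor gene Cx3cr1 with 86.5, Mertk, a receptor for dying cells, with 77.7, and Lyz2 with 73.5. Itgb2 (63.2), Itgam (56.3) and Lgals3 (52.8) were lost in the full lists only. Gained were Adgre1 with 68.5 and the cathepsin gene Ctsb with 61.8. Among lineage transcription factors 9 of 11 genes with an untreated edge peak had one after IL-4 too, in Cebpd at another place. Maf lost one of 126 and Runx1 one of 62.3.

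Lysosomal genes lost 6 of 18 edge peaks (33.3%, against 22.7%) and gained 1. Lost peaks were those of Neu1, a sialidase, with 131, the cathepsin gene Ctsd with 112, the proton pump subunit gene Atp6ap1 with 112, the traffic regulator Rab7 with 95.1 and the saposin precursor Psap with 70.9. These 5 held at equal length, where the share was 29.4% against 17.5%. Lamp2, a lysosomal membrane protein, gained 79.8. Neu1 and Ctsd had edge peaks in both WT libraries.

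Genes of nuclear receptors and lipid handling lost 4 of 17 edge peaks (23.5%), near the 22.7% over all genes, and gained 1. The oxysterol receptor gene Nr1h2 lost 122, Abca1 121 and the sterol regulator Srebf1 87.0, and these 3 held at equal length. Nr1h3, the other oxysterol receptor gene, gained 51.3, below the score limit at equal length. The WT libraries had no edge peak at Abca1 or Srebf1.

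Creatine and arginine genes had 1 gain and 2 losses. Of 18 genes 8 had an edge peak untreated and 7 after IL-4. Gatm, which makes the creatine precursor guanidinoacetate, gained a peak of 59.2, and both WT libraries had one, of 119 and 92.8. A further gained peak of 104 lay 21551 bp from Gatm and overlapped a peak in the WT IL-4 library only. Lost were the arginine carrier gene Slc7a1 with 76.5 and the brain-type creatine kinase gene Ckb with 62.4.

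Other gene groups were small, so each share rests on few genes. Of AP-1 and immediate early genes 9 of 11 with an untreated edge peak had one after IL-4 too. Fos gained 84.7, and Ier2 (67.7) and Dusp1 (61.1) were lost in the full lists only. MHC class II genes lost 2 of 4, H2-DMa and Cd74, and gained H2-DMb2, and none of these held at equal length. Chemokine genes lost none of 4 and gained Cxcr4 with 57.6. SWI/SNF chromatin remodeller subunits lost 4 of 14 (28.6%, against 22.7%) and gained 2 (10.0% of the list, against 2.1% of all genes). The losses were Brd7 (79.0), Arid1b (68.0), Smarce1 (53.2) and Bcl7c (52.6), and the gains Smarcd1 (58.3) and Smarcc2 (52.7). DNA methylation and histone demethylation genes lost 2 of 9, Kdm6b and Tet2, whose peak scored 64.4. At equal length gains outnumbered losses for SWI/SNF subunits (3 and 2), AP-1 genes (1 and 0), lineage transcription factors (2 and 1), glycolysis (2 and 1) and splicing factors (3 and 2).

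Genes of basic cell functions kept most edge peaks, as did protein-coding genes as a whole, of which 22.7% lost one. Proteasome genes lost 5 of 19 (26.3%), above that share, and gained none. Psma7 (95.8) and Psmc2 (85.1) held at equal length, and Psmb1 (64.7), Psmc3 (61.8) and Psmb6 (54.0) did not. The mitochondrial ribosome lost 4 of 18 (22.2%, near the share over all genes), namely Mrpl15 (137), Mrpl9 (95.4), Mrpl20 (72.1) and Mrpl2 (54.4). It gained Mrpl19 (73.1) and Mrpl10 (64.6). At equal length it went from 12 genes to 16, with 7 gained (25% of the list, against 3.7% of all genes) and 3 lost. Cell cycle genes lost 3 of 21 (14.3%), the replication helicase gene Mcm2 (95.4), the inhibitor gene Cdkn1b (81.9) and Ccnd3 (64.8), and gained none. Housekeeping genes lost Tbp (122), Rab7 and Hprt (72.7) of 21 and gained Chmp2a (74.4). Oxidative phosphorylation genes lost Ndufb3 (138) and Cox4i1 (68.3) of 18 and gained Atp5o (58.3). Splicing factors lost Sf3a1 (101) and Srsf10 (77.8) of 25, a share of 8%, and gained Tra2a (82.8) and Prpf3 (56.6). Glycolysis genes lost only Hk3 (62.9) of 17 and gained none at an edge, although the promoter window of Ldha, lactate dehydrogenase A, was under a gained peak of 72.1.

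Among the marker lists the untreated edge peaks of Mmp8 (neutrophils), Cd5 (T cells), Flt3 (dendritic cells) and Syn1 (neurons) were lost. Markers of B cells, mast cells and fibroblasts had no edge peak in either library, and the erythroid list had 1 in each.

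Most regions that came or went in KO were open in a WT library. Of the 1885 gained peaks 634 overlapped a peak of the WT untreated list only (33.6%), 427 peaks of both WT lists (22.7%), 133 a peak of the WT IL-4 list only (7.06%, 5.94% to 8.31%) and 691 neither (36.7%). So 1061 gained peaks (56.3%, 54.0% to 58.5%) were open in WT without IL-4. Of the 5174 lost peaks 2166 overlapped a WT untreated peak only (41.9%), 1250 both (24.2%), 218 a WT IL-4 peak only (4.21%) and 1540 neither (29.8%). Of the kept untreated peaks 97.0% overlapped a WT peak. At equal length 35.0% of gained peaks were open in WT untreated and 37.8% in WT IL-4, and of lost peaks 47.2% and 40.5%.

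**Figure D5:**
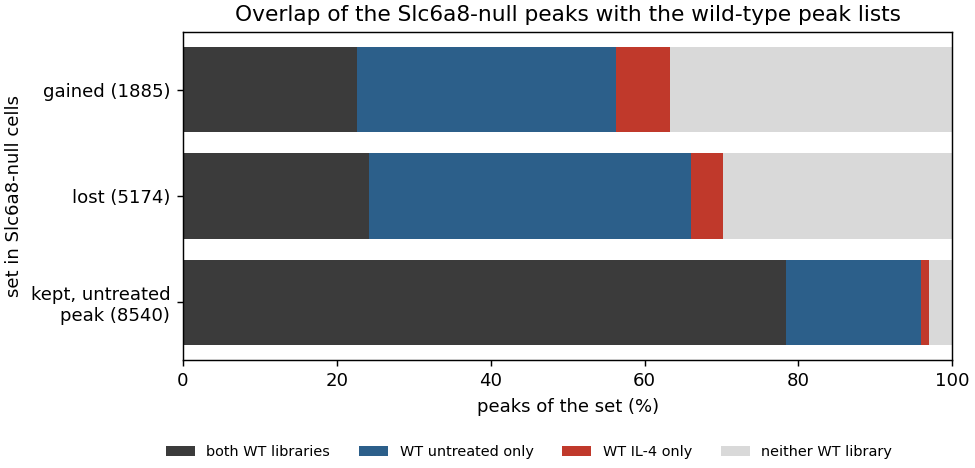
Overlap of gained, lost and kept Slc6a8-null peaks with the WT untreated and WT IL-4 lists, as percent of each set. Segments are peaks overlapped in both WT lists, in 1 of them or in neither. Neither holds for 36.7% of gained, 29.8% of lost and 3.00% of kept peaks.

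The share with a WT peak depended on the score. In the lowest decile of the IL-4 list 53.0% of gained peaks had one, against 88.6% of kept peaks, and in the sixth decile 85.0% against 98.7%. In the untreated list the figures for lost peaks were 50.9% in the lowest decile against 82.5% for kept, and 91.6% against 97.9% in the sixth. Of the 84 gained peaks that scored 100 or more 91.7% had a WT peak, and of the 704 such lost peaks 93.9%.

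The highest-scoring gained peaks lay mostly in regions that WT cells also had open. The strongest, of 201 at percentile 90.7, lay 70053 bp from 1700021F07Rik on chromosome 2, with WT peaks of 56.6 untreated and 104 after IL-4. One of 197.0 was at the edge of Alg1, a mannosyltransferase of glycan assembly, with WT peaks of 147 and 140. Others were near Msx3 (163), inside the caspase gene Casp6 (148), at the edge of the phosphatase gene Ppm1l (143), near Spry2 (143), which encodes a feedback inhibitor of growth factor signalling, inside the kinase gene Prkca (141), inside Syt6 (137) and at the shared edge of Stk19 and Dxo (131). Of these named peaks only that at Ppm1l lacked a WT IL-4 peak.

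Among gained peaks seen in WT IL-4 alone, the highest were at the edge of the growth hormone receptor gene Ghr (127), 213212 bp from Tet2 (125), inside Rab3il1 (119), 9278 bp from the ETS repressor gene Etv3 (119), at the edge of Mtx3 (115) and 40074 bp from Akap7 (109), a neighbour of Arg1. Among those in neither WT library the highest were inside the potassium channel gene Kcnq5 (124), 33815 bp from Arsb (118), 499076 bp from 1700008P02Rik (118) and 58649 bp from Cd47 (113).

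The highest-scoring lost peaks were at gene edges in 8 of 10 cases. They were at Arhgap17 (282), Kdm2a with 9430078G10Rik (243), Churc1 (235), Trp53inp1 (225), the Mediator subunit gene Med1 (222), Chchd2 (219), Zbed5 with Nupr1l (217) and Zfand3 (215). The other two were inside Stab1 (242), a scavenger receptor of macrophages, and 2983 bp from the splicing regulator gene Mbnl1 (227). All 10 had a WT untreated peak, and Med1 alone had no WT IL-4 peak. Lost peaks found in neither WT library reached 149 inside Dlgap4, 145 at Ap2a2 and 143 inside Pdlim7.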

How the data were processed

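ATAC-seq peak lists of 4 libraries were used, of which the report compares KO IL-4 with KO untreated. Per the submitters' processing notes, the build was mm10 and the tools included HOMER, MACS 1.4.2 and Bowtie2 2.2.5. Their parameters, and the handling of multi-mapping reads, duplicates and the Tn5 offset, are not given in the sources used here. Each file gives positions and 1 score per peak as deposited by the authors. The files name no unit for the score, and it was used only to rank and filter peaks within a list.

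Peaks were compared by overlap of 1 bp or more. A RefSeq table of GRCm38.p6, the assembly of mm10, gave 21883 protein-coding genes, and an edge was 1 kb around either end of the gene span. The table gives no exons. Promoter windows and sequences came from the RefSeq table of the same build. Of 617 entries in 29 gene lists, 616 were matched by symbol. With 1 library per group no p-value was computed. Depth is unknown, and peak number, width and score move with it.

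The members and lists were chosen with earlier results of these data known, so their direction is no independent evidence. Named were 9 fixed genes, list genes with a gained or lost edge peak (at least 6 a direction where there were more), the 10 highest gained and lost peaks, gained and lost distal peaks of IL-4 targets (the 15 highest a direction), and genes with the most such peaks within 50 kb. Genes named for peaks seen in 1 WT list or neither were chosen after their values were seen. Some genes the rule names are not reported here. Other settings tried were lists of equal length, a score of 100 or more, autosomes only, reciprocal overlap of 50%, a gap of 500 bp, edges of 2.5 kb and genes extended by 50 kb. The promoter windows and a score of 100 or more against a list with no minimum score were added after the data were seen. The software was Python 3.11.15 with pandas 2.3.3, NumPy 2.4.6, Matplotlib 3.10.9 and SciPy 1.17.1. Simulated data from the 13714 KO untreated peaks served to test the code, which found 3000 of 3000 planted losses, 700 of 700 planted gains and 200 of 200 planted edge peaks.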

Additional observations from a re-analysis of the deposited data

Results flagged for a closer look

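In 4 cases a count over a fixed gene list moved one way with IL-4 in KO and the other way in WT. They were picked for these opposite directions from the counts over the gene lists. Each rests on 1 library per group, and the difference between the genotypes was not tested. Genes with an edge peak on the IL-4 target list went from 5 to 10 in KO, a change of 5, and from 6 to 4 in WT. On the chemokine list they went from 4 to 5 in KO, a change of 1, and from 6 to 3 in WT. On the creatine and arginine list they went from 8 to 7 in KO, a change of -1, and from 9 to 10 in WT. Peaks away from edges within 100 kb of MHC class II genes went from 11 to 13 in KO, a change of 2, and from 18 to 11 in WT. The same count around the IL-4 targets fell in both genotypes, from 58 to 54 in KO and from 94 to 36 in WT. Over all genes the list totals differ too: KO went from 13714 to 10443 peaks and WT from 17339 to 9930. With the KO lists at equal length the counts were 4 and 9 for IL-4 targets, 3 and 5 for chemokines, 7 and 7 for creatine and arginine, where the fall was not present, and 7 and 13 for peaks around MHC class II genes. The WT counts were taken on full lists only, so the genotypes were not compared on lists of like length.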

How the results depend on the processing

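No paired analysis was possible because each group had 1 library, and no replicate could be left out. Of 56 recomputed values 27 stayed within the interval of the reported value (counts within 1.5 times) and 29 moved. The log2 ratio of gained to lost peaks was -1.46. It was -1.29 with reciprocal overlap, -2.49 with a score of 100 or more, and -3.07 with a score of 100 or more and no peak at any score. At equal length it was -0.0131 (-0.09 to 0.07), where lists of the same length hold it near 0 by construction. For the IL-4 targets the balance of gained and lost turned. The edge share of gained peaks moved to 31.6% with reciprocal overlap, 41.9% with a score of 100 or more, 29.6% at equal length and 31.6% with edges of 2.5 kb. That of lost peaks moved to 35.0%, 56.5%, 40.0% and 39.8% in the same order, and to 47.9% with a score of 100 or more and no peak at any score. It was above that of gained peaks in each of these settings. The share of gained peaks with a WT peak moved from 63.3% to 71.2% with a score of 100 or more, 52.5% at equal length and 91.7% with no peak at any score. That of lost peaks moved from 70.2% to 67.4% with reciprocal overlap, 77.7%, 61.9% and 93.9%. With a score of 100 or more in both lists, IL-4 targets had 1 gained and 2 lost edge peaks, and 1 gained and 8 lost distal peaks. With no peak at any score these were 0 and 0, and 0 and 2. At equal length 14 distal peaks were lost in place of 31, against 25 gained in place of 26. The stricter scores and the equal length keep fewer peaks by construction. Unknown depth limits every count, most of all those of weak peaks near the score limit of the lists.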

Other observations

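Neighbourhoods differed in how many peaks came or went. Within 50 kb of Vps13d, a lipid transfer protein, 5 peaks were gained and 3 lost. Around Cd68 and its neighbours Sox15, Eif4a1 and Tnfsf13 on chromosome 11 there were 4 gained peaks and none lost, with 4 peaks untreated and 8 after IL-4. Gtf3c4 and Ak8 had no untreated peak within 50 kb and 4 after IL-4. Bach1, a repressor of heme and oxidative stress genes, also had 4 gained and none lost. In the other direction, Usp6nl had 7 untreated peaks and none after IL-4, and Nrp2, a semaphorin receptor gene, had 6 and none. Rgs14, Ampd3, Coro2a and Zmiz1 each had 6 lost and none gained. These genes were named after their values were seen, apart from Vps13d and the Cd68 neighbours.

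Peaks kept in both KO libraries also moved in rank. At equal length 7193 pairs of peaks overlapped one to one, and the rank correlation of their scores was 0.725 across peaks, which share 2 libraries and are not replicates. Of these pairs 65.9% were narrower after IL-4. The largest rises in rank were inside Cpeb4, from 8505 to 949, inside Pcnx2, from 9391.5 to 1933, and at Eif5a2, from 9206 to 1921. Near S100a10 a peak rose from 8116 to 1098.5. The largest falls were at Rhbdd1, from 1835 to 9930, near Utp14a, from 1734 to 9709.5, and inside the methionine cycle gene Mat2b, from 2303 to 9873. Mlst8, a subunit shared by both mTOR complexes, fell from 1838.5 to 9361, and the catalase gene Cat from 1749 to 8798.5.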
